A study of Homo sapiens with 4 samples.

Results

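The genes described here are the numbered long intergenic non-coding RNAs (lincRNAs), taken as every row of the expression table whose symbol is LINC followed by digits only. LINC01291, the target of the siRNA in this study, and LINC01293 were left out. That gave 262 genes of 18175 rows. RNA sequencing values came from SK-MEL-28 and A375, both human melanoma cell lines, with 1 library for each of 4 groups: SK-MEL-28 with siLINC01291, SK-MEL-28 with siNC, A375 with siLINC01291 and A375 with siNC. By its name, siNC is a negative control siRNA. The treatment text adds the letters EL to the 2 siRNAs, and their meaning for these 4 libraries is unknown. Each group is a single library of a single cell line, so the siRNA is replicated only across the 2 lines. The 2 libraries of a line differ in siRNA and are not said to be separate cultures, so p-values measure only the spread between these libraries.

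Long intergenic non-coding RNAs are transcripts that lie between protein-coding genes, are usually spliced and polyadenylated, and carry no long open reading frame. They are known as a class with low levels and with expression restricted to few tissues or cell types. The numbers are catalogue names given to loci without a known function, and a few such loci were later found to encode short proteins or to host microRNAs. In cancer cell lines, lincRNAs are often studied as markers of lineage or as candidate drivers of growth.

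All 262 loci were found by their Ensembl identifier in GENCODE release 29, and 216 of them were typed there as lincRNA. Another 15 were typed as antisense, 14 as processed transcript, and 1, LINC02693, as protein-coding. The exons of 63 overlapped an exon of another gene, 48 on the opposite strand, and 18 had a near-identical copy elsewhere. Strand-specific counting is not stated, so reads of overlapping genes cannot be told apart, and such genes are marked below as uncertain.

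The libraries held 29351240 counts (SK-MEL-28 siLINC01291), 29416145 (SK-MEL-28 siNC), 31815336 (A375 siLINC01291) and 30879719 (A375 siNC). LINC01291 had 454 counts with siLINC01291 and 998 with siNC in SK-MEL-28, and 304 with siLINC01291 and 827 with siNC in A375, so it was lower with its siRNA in both lines. Of 9 melanocyte and melanoma markers, 9 reached an FPKM of 1 in SK-MEL-28 and 5 in A375; MLANA, TYR, TYRP1 and DCT were below 1 in both A375 libraries. No leukocyte or endothelial marker searched for was among the rows, and of the keratinocyte markers KRT14 was seen at an FPKM of 7.32 and 6.16 in A375. LUM, a fibroblast marker, was seen at 8.07 and 7.84 in SK-MEL-28 and at 3.74 and 3.25 in A375.

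Numbered lincRNAs took a small part of the RNA in every library, and no single one dominated them. FPKM, the fragments of a gene scaled to its length and to the library's size, is used here as the level of a gene per length. The genes summed to an FPKM of 471 and 356 in SK-MEL-28 (siLINC01291 and siNC) and of 416 and 379 in A375. Their counts were 0.174 and 0.139% of all counts in SK-MEL-28 and 0.156 and 0.147% in A375. The 5 highest lincRNAs of each library held between 27.0 and 32.2% of its lincRNA counts. An FPKM of at least 1 was reached by 80 and 66 of the 262 in SK-MEL-28 and by 98 and 84 in A375. No count at all was seen for 24 and 25 in SK-MEL-28 and for 12 in each A375 library. The median gene of the class averaged 0.654 FPKM over the 4 libraries, against 6.02 for protein-coding genes.

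The highest lincRNA was a different one in each line. LINC01029, on chromosome 18, had an FPKM of 0.550 and 0.389 in SK-MEL-28 and of 49.2 and 52.6 in A375 (siLINC01291 first in each line). LINC00520, a lincRNA on chromosome 14 that has been studied in melanoma, had an FPKM of 43.4 and 25.3 in SK-MEL-28 and of 0.432 and 0.334 in A375. Both genes were picked as the highest of a line, and that choice favours a gap between the lines. Of the 10 lincRNAs with the highest mean level, 9 were at least 8-fold apart between the lines. Over all genes tested, 10.9% were called and at least 8-fold apart. A ranking by the mean of the 4 libraries also takes in genes that are high in 1 line only. LINC01116 alone of the 10 was seen at several FPKM in both lines. LINC01116, described in several cancers and overlapped by LINC01117 on the opposite strand, had an FPKM of 11.1 and 10.5 in SK-MEL-28 and of 3.45 and 3.17 in A375.

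**Figure D1:**
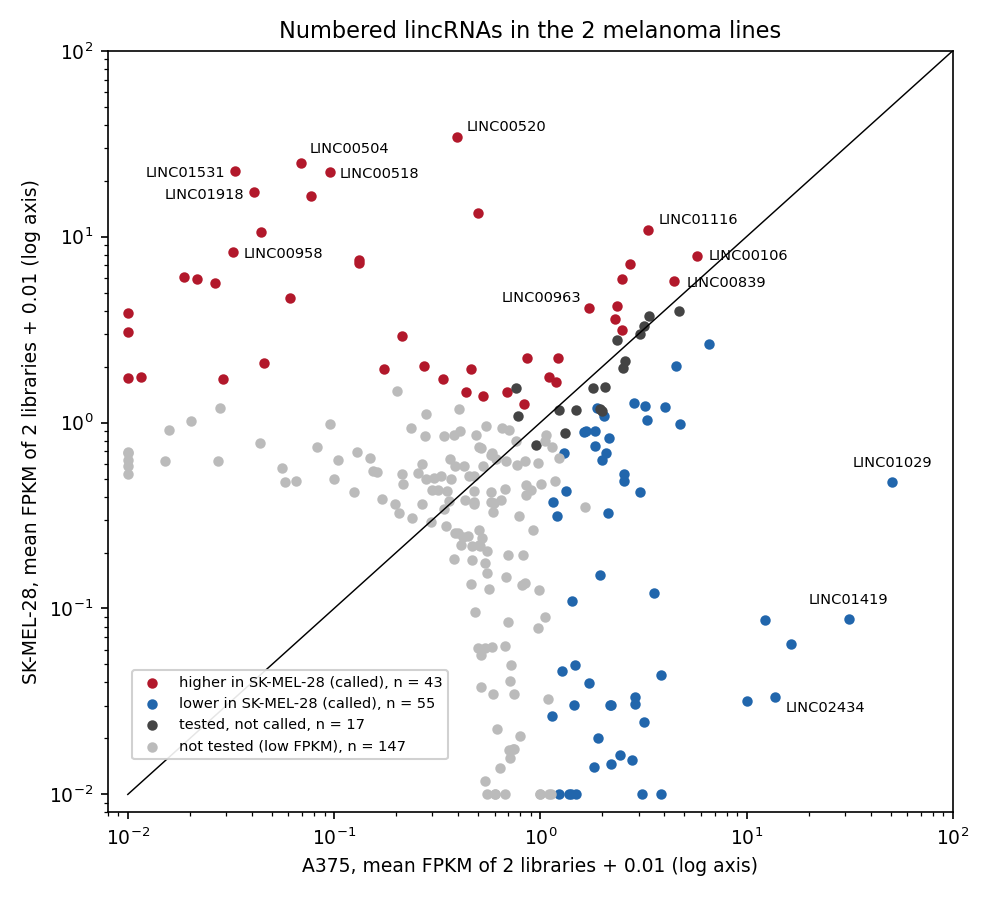
Mean FPKM of each of the 262 numbered lincRNAs in SK-MEL-28 (vertical axis) against A375 (horizontal axis), each the mean of the 2 libraries of a line plus 0.01, on log axes with the line of equal level. Points are coloured by the edgeR test of SK-MEL-28 against A375; LINC00520 lies in the upper left and LINC01029 at the far right, and 43 genes were called higher and 55 lower in SK-MEL-28.

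At a cut of an FPKM of 1, most expressed lincRNAs passed in only 1 of the 2 lines. The median lincRNA averaged 0.654 FPKM, so a small difference can place a gene on either side of this cut. An FPKM of 1 was reached in either library by 84 lincRNAs in SK-MEL-28 and by 101 in A375, and by 36 in both lines. The 36 are 24.2% of the 149 lincRNAs expressed in either line; of all genes expressed in either line, 75.3% (10988 of 14592) were expressed in both. By name, the share was 44.6% for antisense RNAs, 39.0% for divergent transcripts and 70.7% for small RNA host genes. The first 2 of these classes had median levels of 0.666 and 0.638 FPKM, near that of the lincRNAs. Tests were limited to genes that reached an FPKM of 1 in 2 or more libraries. Of the 115 lincRNAs that did so, 43 were higher and 55 were lower in SK-MEL-28 than in A375, together 85.2%, at an adjusted p under 0.05 (edgeR quasi-likelihood test with siRNA as a covariate, Benjamini-Hochberg over 13501 genes). Over all 13501 genes, 36.1% were called higher and 36.3% lower, together 72.4%. The differences were often large: 54 of the 115 were called and at least 8-fold apart, against 10.9% of all genes tested, 8.84% of protein-coding genes and 19.6% of genes named as antisense RNAs.

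These shares are to be read beside how the genes passed the limit on low levels. Of the 115, 79 (68.7%) passed through 1 line alone, 33 through SK-MEL-28 and 46 through A375. Such a gene lay below an FPKM of 1 in the other line, so this route favours genes that differ, by however little. Among protein-coding genes 13.1% passed that way. The other 36 reached an FPKM of 1 in a library of each line: 22 of them (61.1%) were called, 12 higher and 10 lower in SK-MEL-28, and 0 were 8-fold apart. Over all genes expressed in both lines, 67.3% were called and 1.40% were 8-fold apart. The median size of the difference among the 36 was 0.64 on the log2 scale, against 0.54 for all genes expressed in both lines. This split was added after the values were seen. The other 147 lincRNAs were not tested.

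A stricter description counts genes that reached an FPKM of 1 in both libraries of one line and had at most 3 counts in each library of the other. By that rule 10 lincRNAs (3.82%) were seen in SK-MEL-28 only, against 1.13% of all rows and 0.273% of protein-coding genes. In A375 only, there were 23 (8.78%), against 2.09% of all rows and 0.842% of protein-coding genes. The bars by class place the lincRNAs above the antisense RNAs, divergent transcripts and small RNA host genes in both measures. Since the table lists only rows whose FPKM sums to at least 1 over the libraries, a gene of low level enters it more easily when it is high in one line.

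**Figure D2:**
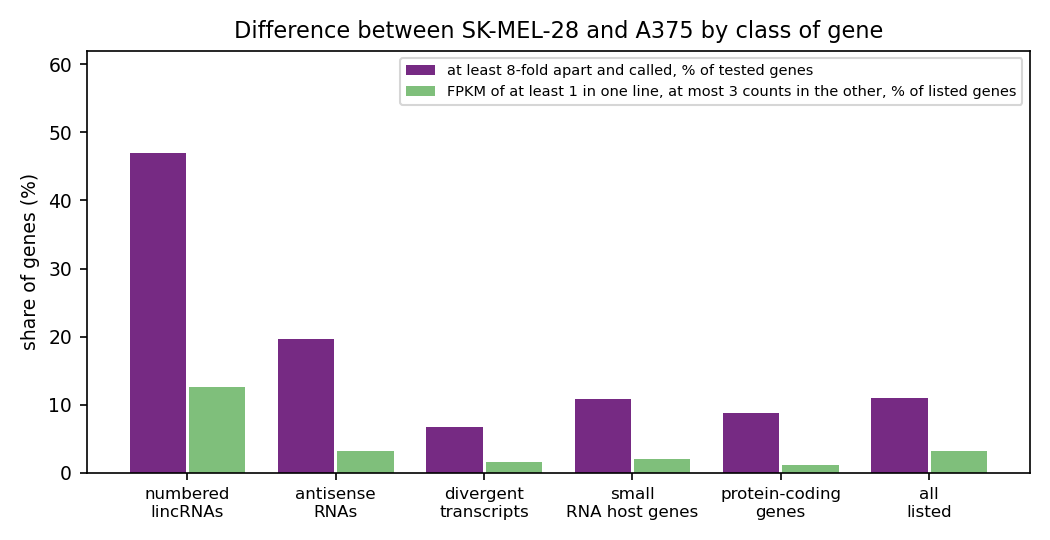
Share of genes (%, vertical axis) in each class that were called and at least 8-fold apart between SK-MEL-28 and A375 (purple, of the tested genes) or seen in one line and at 3 counts or fewer in the other (green, of the listed genes). The numbered lincRNAs stand at 47.0% and 12.6%, the protein-coding genes at 8.84% and 1.11%.

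The SK-MEL-28 set was led by LINC00520, LINC00504, LINC01531, LINC00518 and LINC01918. LINC00518 lies on chromosome 6 (GRCh38, chr6:10429255-10434874, minus strand) near TFAP2A and is known as one of 2 RNAs measured in a skin patch test for melanoma, beside PRAME. Its counts were 1834 and 848 in SK-MEL-28 (siLINC01291 and siNC), against 9 and 2 in A375, a log2 ratio of SK-MEL-28 to A375 of 8.18 (SE 0.22, adjusted p = 1.02e-06, edgeR). Its exons overlap MIR5689HG on the opposite strand, so its reads are uncertain. PRAME itself, a melanoma antigen, was seen in both lines, at an FPKM of 108 and 107 in SK-MEL-28 and of 25.8 and 31.6 in A375.

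LINC00504, on chromosome 4, had 4410 and 3035 counts in SK-MEL-28 and 10 and 9 in A375 (log2 ratio 8.85, SE 0.17, adjusted p = 5.37e-07), and it has a near-identical copy elsewhere. LINC01531, on chromosome 19, had 3449 and 2028 counts in SK-MEL-28 and 3 in each A375 library (log2 ratio 10.0, SE 0.20, adjusted p = 5.74e-07). It shares exons with another gene on its strand. LINC00958, first described in bladder cancer, had 1533 and 1277 counts in SK-MEL-28 and 1 and 7 in A375, a log2 ratio of 8.66 (SE 0.33). The counts of these genes lay further apart between the 2 lines than between the libraries of a line. LINC00504, LINC01531 and LINC00958 were named for their large line differences, so that choice favours such a gap. The 2 libraries of a line differ in siRNA, so their spread is not that of replicates.

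Several SK-MEL-28 lincRNAs were at or next to 0 in A375. LINC02525 had 174 and 125 counts in SK-MEL-28 and none in A375, so it was at least 58.8-fold higher in SK-MEL-28, with the floor set at 3 counts per library. LINC02787, with 31 and 22 counts in SK-MEL-28 and none in A375, was at least 10.4-fold higher. LINC01918 had 658 and 369 counts in SK-MEL-28 and 2 and 0 in A375; the ratio of the summed counts was 627 (exact binomial 95% interval 173 to 5185, counting error only). LINC00488 and LINC00698 on chromosome 3 each had 1 count in each A375 library, against 766 and 528 counts of LINC00488 and 531 and 419 of LINC00698 in SK-MEL-28. LINC01320, overlapped on the opposite strand, had 603 and 441 counts in SK-MEL-28 and 0 and 1 in A375.

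The A375 set was led by LINC01029, LINC01419, LINC02582 and LINC02434. LINC01419, described in liver cancer, had an FPKM of 0.0894 and 0.0669 in SK-MEL-28, against 34.2 and 28.2 in A375 (log2 ratio of SK-MEL-28 to A375 -8.43, SE 0.21, adjusted p = 8.42e-07, edgeR). LINC02582 had an FPKM of 0.0409 and 0.0680 in SK-MEL-28, against 17.8 and 15.1 in A375, and it has a near-identical copy. LINC02434, on chromosome 4, had 1 count in each SK-MEL-28 library, against 705 and 550 in A375; its summed counts were 514-fold higher in A375 (exact binomial 95% interval 142 to 4247). LINC01203, on the X chromosome, had 6 and 3 counts in SK-MEL-28, against 2545 and 1920 in A375 (log2 ratio -8.66, SE 0.20).

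LINC02109 and LINC01363 had no count in SK-MEL-28. LINC02109 had 273 and 220 counts in A375, which made it at least 66.4-fold lower in SK-MEL-28, and LINC01363 had 311 and 158, at least 62.7-fold lower. LINC02088, whose exons overlap other genes, and LINC02587 were also at 0 in SK-MEL-28, with bounds of 16.4-fold and 14.8-fold lower. LINC00460, described in head and neck and other cancers, had 0 and 1 count in SK-MEL-28, against 262 and 221 in A375. Of the 7 listed members of a hand-made list of lincRNAs described in other cancers, LINC00958, LINC00963, LINC00511 and LINC01116 were higher in SK-MEL-28 and LINC00460 was lower; LINC00662 and LINC01138 were not tested. Of a list of 4 melanoma lincRNAs, 2 were among the rows, LINC00518 and LINC00520, and both were higher in SK-MEL-28. Both passed the limit on low levels through SK-MEL-28 alone. Over all genes tested, 36.1% were called higher and 36.3% lower in SK-MEL-28.

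Line differences were often shared with the nearest protein-coding gene. Of the 98 lincRNAs called between the lines, 60 had a tested nearest coding gene. Of these neighbours, 55 (91.7%) were called too and 42 (70.0%) were called in the same direction. For called protein-coding genes, 76.0% of the tested nearest coding genes were called and 54.2% were called in the same direction; for antisense RNAs the shares were 83.5% and 75.8%. Among neighbours that were themselves called, the share in the same direction was 76.4% for lincRNAs, 71.4% for protein-coding genes and 90.8% for antisense RNAs. These shares are descriptions, and their differences were not tested. LINC00518 was joined by TFAP2A, a transcription factor of the neural crest and melanocyte lineage, 9596 bases away, at a log2 ratio of SK-MEL-28 to A375 of 2.15. LINC00504 was joined by CPEB2, a regulator of mRNA translation (3.17), and LINC00958 by TEAD1, a transcription factor of the Hippo pathway (1.62). LINC00488 was joined by C3orf85 (8.24), and LINC01443 by ANKRD30B (6.02).

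On the A375 side, LINC02587 lies 1566 bases from MEOX2, a homeobox gene, whose log2 ratio was -9.21. LINC02584 lies 2869 bases from ANO1, a calcium-activated chloride channel gene, whose log2 ratio was -8.00. LINC00460 was joined by EFNB2, an ephrin ligand (-5.28). Other pairs went apart: LINC02835 was lower in SK-MEL-28 (0 and 2 counts, against 30 and 49 in A375), while its neighbour EPHA5, an ephrin receptor, was higher there (log2 ratio 6.85). LINC00520 was 6.63 higher on the log2 scale in SK-MEL-28 and its neighbour KTN1 was 0.42 lower (log2 ratio -0.42).

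siLINC01291 moved few lincRNAs past the test over both lines. One of the 115, LINC00518, rose, and 0 fell, at an adjusted p under 0.05 (edgeR quasi-likelihood test blocked by cell line, Benjamini-Hochberg over 13501 genes); over all genes 0.222% rose and 0.674% fell. At an unadjusted p under 0.05, 20 lincRNAs (17.4%) were counted, beside 16.9% of all genes, so the class was near the background. DESeq2 called 1 risen and 1 fallen, and limma on log2 FPKM called 0. With 2 pairs of libraries the test has 1 residual degree of freedom, which limits what it can call.

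LINC00518 had an FPKM of 30.6 with siLINC01291 and 14.1 with siNC in SK-MEL-28, and of 0.138 and 0.0317 in A375. The log2 ratio over both lines was 1.12 (SE 0.16, adjusted p = 0.0468, edgeR), and the gene was higher with siLINC01291 in 2 of 2 lines. In SK-MEL-28 alone it was 2.11-fold higher (exact binomial 95% interval 1.95 to 2.30). In A375 it rests on 9 and 2 counts, with an interval from 0.874 to 40.2-fold, so the call rests on SK-MEL-28. Its neighbour TFAP2A had a log2 ratio of 0.13 in SK-MEL-28. No transcript of LINC00518 holds the words described further on.

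Other lincRNAs came close to the threshold. LINC02693 had 1281 counts with siLINC01291 and 1900 with siNC in SK-MEL-28, and 1116 and 1575 in A375, and it shares exons with other genes on both strands. Its log2 ratio was -0.59 (SE 0.10, adjusted p = 0.0590, edgeR; 0.0276 in DESeq2). LINC00963, described in prostate cancer, had 2043 and 1355 counts in SK-MEL-28 and 925 and 603 in A375 (log2 ratio 0.55, SE 0.10, adjusted p = 0.0726). LINC01521, a single-exon locus beside PATZ1, had 74 and 28 counts in SK-MEL-28 and 151 and 73 in A375 (log2 ratio 1.12, SE 0.21, adjusted p = 0.0797). In each of these, both lines lay on the same side. LINC01531 (0.72, adjusted p = 0.0851) and LINC00520 (0.67, adjusted p = 0.0879) had their counts almost wholly in SK-MEL-28.

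**Figure D3:**
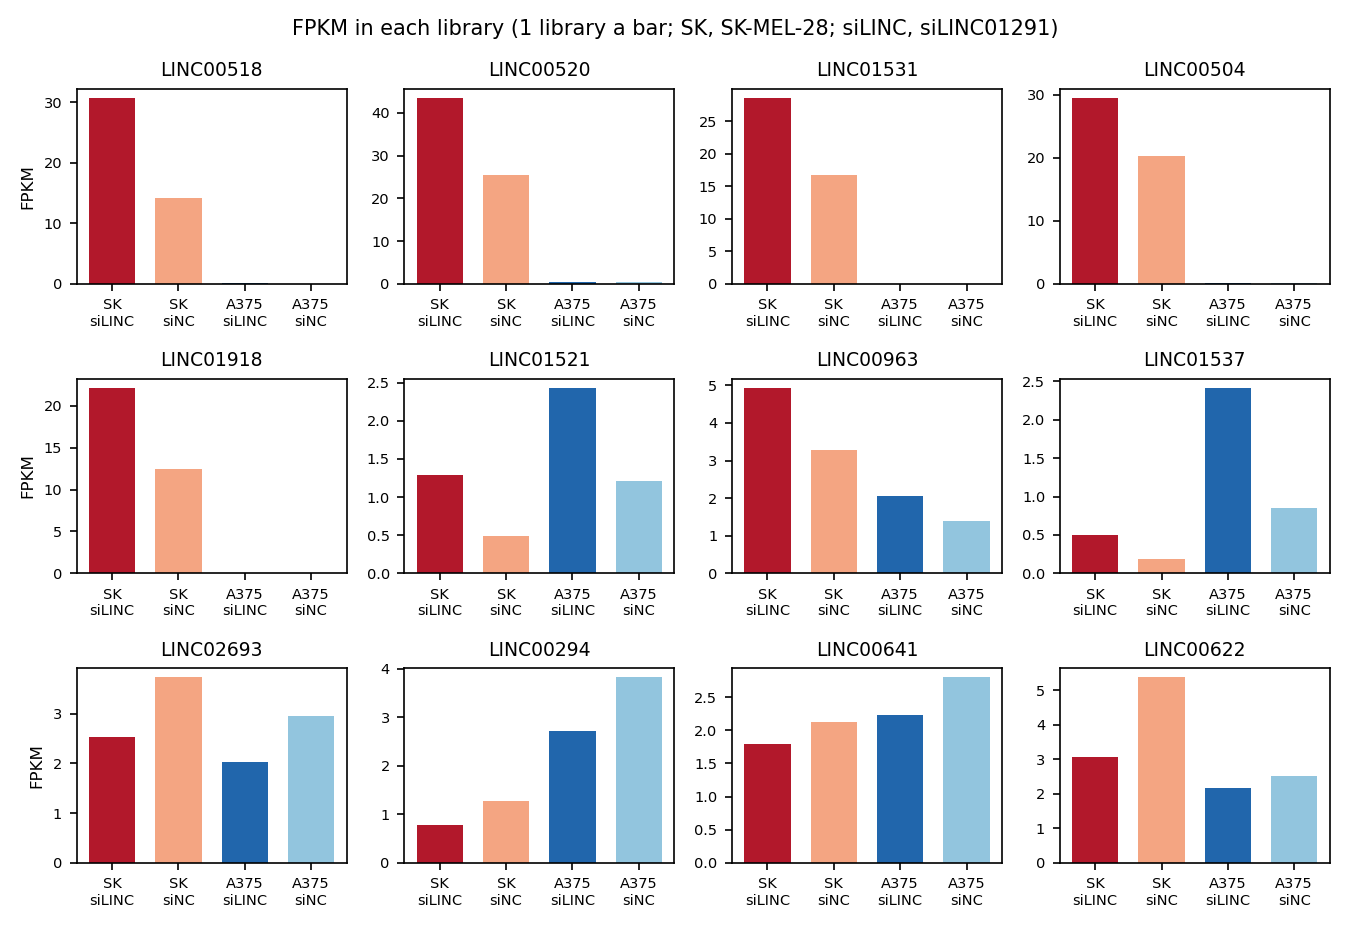
Deposited FPKM (vertical axes, each from 0 and with its own scale) of 12 lincRNAs in the 4 libraries, 1 bar a library, in the order SK-MEL-28 siLINC01291, SK-MEL-28 siNC, A375 siLINC01291, A375 siNC. The first 5 panels show genes of SK-MEL-28 with the siLINC01291 library above the siNC library, such as LINC00518 at 30.6 and 14.1; the lower row shows LINC02693, LINC00294, LINC00641 and LINC00622, whose siLINC01291 library is the lower one in both lines.

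Within a line there is 1 library a group and no replicate check, so the following values are descriptions. In SK-MEL-28, 84 lincRNAs had an FPKM of at least 1 in either library. Of these, 4 were at least 2-fold higher with siLINC01291 (4.76%), where 1.72% of all expressed genes were, and 0 were 2-fold lower, where 1.54% were. The 4 were LINC01521, LINC01730, LINC00518 and LINC00337. LINC01730 had 27 counts with siLINC01291 and 10 with siNC, a 2.64-fold ratio with an interval of 1.24 to 6.11. LINC00337 had 89 and 42 counts (2.07-fold, 1.42 to 3.07) and overlaps ICMT on the opposite strand. LINC02728, with 74 and 36 counts, lay just outside this group (log2 ratio 0.97). The exons of LINC01730 overlap another gene on its strand.

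On the lower side in SK-MEL-28 stood LINC00622, with 142 counts with siLINC01291 and 249 with siNC (log2 ratio -0.83). LINC00294 had 75 and 125 counts (-0.76), and its exons overlap CSTF3 on the opposite strand. LINC01023 had 11 and 19 counts, a log2 ratio of -0.73 whose interval as a ratio ran from 0.243 to 1.25. LINC01444, which has a near-identical copy, had 64 and 94 counts (-0.57), while LINC01443, whose locus on chromosome 18 overlaps it, had 1619 and 1133 counts and a log2 ratio of 0.48.

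In A375, 101 lincRNAs were expressed; 2 were at least 2-fold higher with siLINC01291 (1.98%, beside 0.929% of all expressed genes) and 0 were 2-fold lower (beside 1.06%). LINC01537 had 189 counts with siLINC01291 and 65 with siNC (2.73-fold, interval 2.05 to 3.68). The same gene had 36 and 13 counts in SK-MEL-28, 2.71-fold with an interval of 1.40 to 5.56, at a level below an FPKM of 1. LINC02765 had 109 and 45 counts in A375 (2.27-fold, 1.59 to 3.29). LINC01363, which was at 0 in SK-MEL-28, had 311 and 158 counts (log2 ratio 0.88). On the lower side were LINC02835 (30 and 49 counts, -0.76), LINC00685 (10 and 16, -0.65) and LINC02878 (127 and 186, -0.63).

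Beyond single genes, most expressed lincRNAs were slightly higher with siLINC01291. The median log2 ratio was 0.23 in SK-MEL-28, where 63 of 84 lay above 0, and 0.14 in A375, where 65 of 101 did. All expressed genes had a median of 0.00 in SK-MEL-28 and -0.01 in A375. Protein-coding genes of like level, between an FPKM of 1.08 and 3.03, had medians of 0.04 and 0.03; this comparison was chosen after the values were seen. Antisense RNAs had medians of 0.26 in SK-MEL-28 and 0.10 in A375 and divergent transcripts of 0.43 and 0.16, so the numbered lincRNAs did not stand alone among non-coding classes. Small RNA host genes had 0.09 in SK-MEL-28 and -0.10 in A375. With the deposited CPM as the scale the lincRNA medians were 0.26 and 0.18, and those of all genes 0.04 in both lines.

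**Figure D4:**
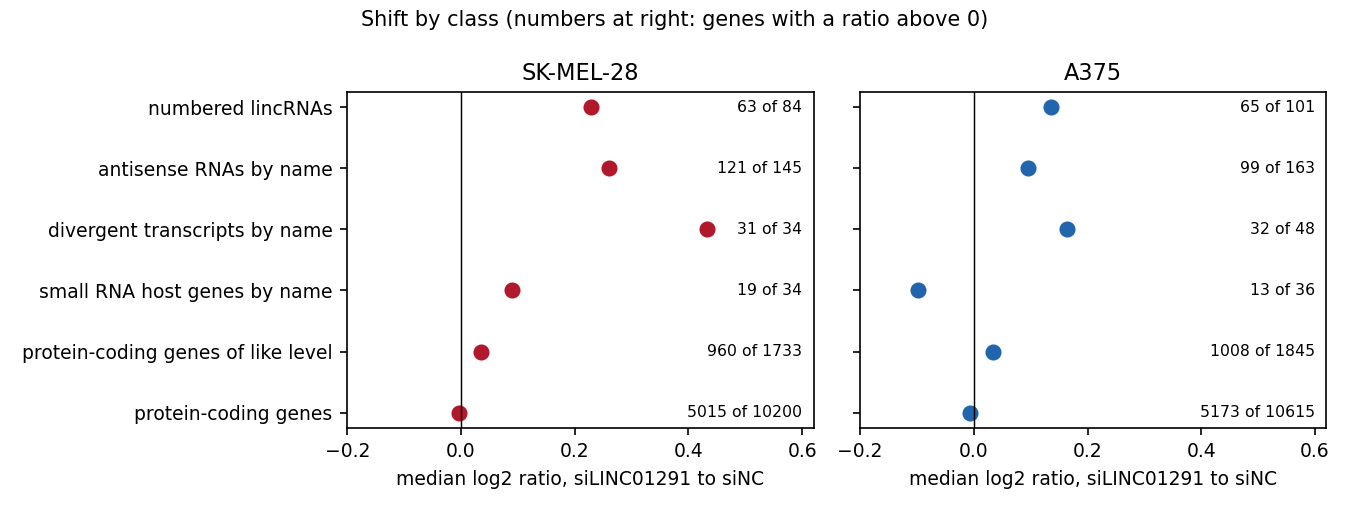
Median log2 ratio of siLINC01291 to siNC (horizontal axis) of the expressed genes of each class, in SK-MEL-28 (left) and A375 (right), 1 pair of libraries a panel; the numbers give the genes above 0 among those expressed. The numbered lincRNAs lie at 0.23 and 0.14, with 63 of 84 and 65 of 101 above 0, and the protein-coding genes lie next to 0.

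The lincRNAs that mark SK-MEL-28 were mostly higher with siLINC01291 there. Of the 24 that were called at least 8-fold higher in SK-MEL-28 than in A375, 22 were higher with siLINC01291 in SK-MEL-28, with a median log2 ratio of 0.42. Among protein-coding genes chosen in the same way, 269 of 403 were higher, with a median of 0.12. Among all genes so chosen, 450 of 639 (70.4%) were higher, with a median of 0.17. All 10 lincRNAs seen in SK-MEL-28 only were higher with siLINC01291 there, between 0.04 and 0.90 on the log2 scale, with a median of 0.44. Of all genes seen in SK-MEL-28 only, 157 of 206 (76.2%) were higher there, with a median of 0.31, so this side was not particular to lincRNAs. The 2 choices share the SK-MEL-28 libraries with the ratio itself, so these are descriptions. The 30 lincRNAs at least 8-fold lower in SK-MEL-28 showed no such side in A375, where 16 of 30 were higher with siLINC01291 and the median was 0.04. Over all genes so chosen, 448 of 836 (53.6%) were higher in A375, with a median of 0.03.

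The summed FPKM of the 9 melanocyte and melanoma markers was 2045 with siLINC01291 and 1724 with siNC in SK-MEL-28, and 158 and 124 in A375. In SK-MEL-28, 8 of the 9 markers were higher with siLINC01291, where 57.2% of all expressed genes were higher on the deposited CPM. Of the 8, DCT (164 and 163) and PRAME (108 and 107) differed little. PMEL, a melanosome protein gene, gave the largest part of the sum with an FPKM of 1043 and 804. In A375, 4 markers were higher and 5 lower, where 57.5% of all expressed genes were higher on the deposited CPM. SOX10, a transcription factor of the neural crest, stood at 118 and 80.1 there. PRAME stood at 25.8 and 31.6 and MITF at 5.48 and 5.68. The part of these markers in the lincRNA shift was not tested.

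Of the 36 lincRNAs expressed in both lines, 19 were higher with siLINC01291 in both, 9 were lower in both, and 8 differed in sign. Over the 10988 genes expressed in both lines, 3391 were higher in both and 3715 lower in both. LINC01521 was highest by its smaller shift, at log2 ratios of 1.32 in SK-MEL-28 and 0.94 in A375, followed by LINC00963 (0.56 and 0.52). LINC01771 (0.68 and 0.34), LINC02585 (0.30 and 0.72) and LINC01003 (0.62 and 0.28) came next, the first pair of these on at most 41 counts a library. On the lower side LINC02693 (-0.60 and -0.59), LINC00294 (-0.76 and -0.54), LINC00641 (-0.28 and -0.37) and LINC00622 (-0.83 and -0.26) led.

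**Figure D5:**
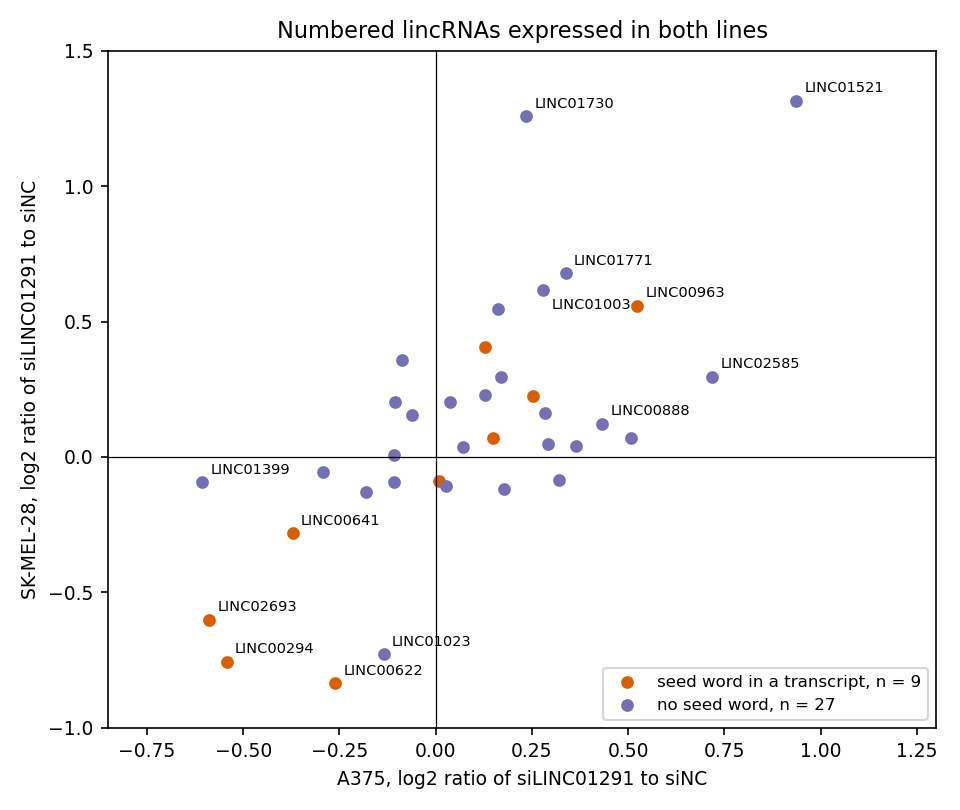
Log2 ratio of siLINC01291 to siNC in SK-MEL-28 (vertical axis) against A375 (horizontal axis) for the 36 lincRNAs expressed in both lines, 1 point a gene. Orange points hold one of the 2 seed words in an annotated transcript (n = 9) and purple points do not (n = 27); the 4 orange points at the lower left are LINC02693, LINC00294, LINC00641 and LINC00622.

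An siRNA can also pair with other transcripts through the seed of its guide strand, the bases near the guide's 5′ end. The sequence of siLINC01291 was not known here. Earlier work on these libraries had found that genes with CTATGAA or TCTATGA in their 3′ ends were lower with siLINC01291, and these words of 7 bases, which overlap, were searched on the transcript strand of every annotated transcript. Of the 262 lincRNAs, 56 (21.4%) held at least 1 of the words, against 32.4% of all genes and 40.9% of protein-coding genes with their longer transcripts. Sites are shown for LINC01291 and for the 4 lincRNAs with a word that were expressed and lower in both lines. Of the 4 with a word that were expressed and higher in both, 1 is shown. Windows are of 30 bases, with the word, or both words joined, in capitals. Sequences and exonic positions are from GENCODE 29 on GRCh38.
LINC01291, chr2:74931480-74931509, plus strand: ggtgtctggacTCTATGAAgaatcttcatg
LINC00294, chr11:33077512-33077541, plus strand: tttgttgttgcTCTATGAAgataagctaat
LINC02693, chr17:21573352-21573381, minus strand: gctgaatatctTCTATGAAgatcacttccc
LINC00641, chr14:21200988-21201017, minus strand: ggataatactaCTATGAAcattcctgtaca
LINC00622, chr1:119598164-119598193, minus strand: ggataaagttgCTATGAAtattcacattca
LINC00963, chr9:129513441-129513470, plus strand: ctttcattgatTCTATGAgaagtctgcagt

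LINC00963 is the 1 shown that was higher in both lines. Of the 9 lincRNAs with a word that were expressed in both lines, 4 were higher in both, 4 were lower in both and 1 differed in sign. Of the 262 lincRNAs, 14 hold both words joined. Of the sites shown, the joined words stand in LINC01291, LINC00294 and LINC02693, and the run of bases around the word that was the same as in LINC01291 was 11 in LINC00294 and 10 in LINC02693. A run of 10 bases was also found in LINC00698 and LINC02606, which were expressed in SK-MEL-28 alone and were higher with siLINC01291 there (log2 ratios 0.31 and 0.23), and in LINC01505, which was lower there (-0.45). LINC00488 holds the joined words with a run of 8 and had a log2 ratio of 0.50 in SK-MEL-28. LINC00641 and LINC00622 hold only the first word. A match says that the letters are present, and pairing with the siRNA was not measured.

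Among all lincRNAs expressed in a line, the median ratio was not lower with a word, but it was among those expressed in both lines. In SK-MEL-28 the median log2 ratio was 0.23 for the 19 expressed lincRNAs with a word and 0.20 for the 65 without. In A375 it was 0.14 for 23 with and 0.13 for 78 without. Over all expressed genes it was -0.07 with and 0.05 without a word in SK-MEL-28, and -0.04 with and 0.01 without in A375. Since the words were found in these same libraries, this contrast over all genes was set in advance and is no independent check. Among lincRNAs expressed in both lines, 4 of 9 with a word and 5 of 27 without were lower in both; over all genes the shares were 45.1% with and 27.2% without. The medians of these 9 and 27 lincRNAs were -0.09 and 0.12 in SK-MEL-28, and 0.01 and 0.16 in A375. These differences were not tested. Transcripts with a word were longer, at a median of 4075 bases against 1656 in these 36 lincRNAs. Over all genes expressed in SK-MEL-28 the medians were 4506 and 2615 bases.

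The other lincRNAs with a known role included genes for short proteins and a microRNA host. LINC00467 and LINC00665, both reported to encode short proteins, had log2 ratios of siLINC01291 to siNC of 0.16 and -0.09 in SK-MEL-28 and of 0.14 and -0.11 in A375. The intervals of the ratio included 1 for each of them in both lines. LINC00665 was lower in SK-MEL-28 than in A375 (log2 ratio -1.22, SE 0.11, adjusted p = 9.26e-05, edgeR). LINC00461, whose locus hosts miR-9-2, had an FPKM of 0.310 with siLINC01291 and 0.398 with siNC in SK-MEL-28, and of 0.297 and 0.220 in A375. Its level was below the limit for testing in all 4 libraries. LINC00839 (5.58 and 5.95 FPKM in SK-MEL-28, 4.23 and 4.64 in A375), LINC00888 (7.48 and 6.70, and 3.16 and 2.26) and LINC00106 (9.47 and 6.30, and 6.14 and 5.29) stayed above an FPKM of 2 in all 4 libraries.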

How the data were processed

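Deposited gene-level values of 4 libraries were used. The deposited counts are unnormalised read numbers for each gene. Per the labels' protocols, RNA was selected with oligo(dT) beads, fastp cleaned the reads, HISAT2 aligned them, StringTie assembled new transcripts and HTSeq did the counting. The deposited FPKM and CPM were scaled by the authors per library. The TPM that the authors deposited were not used. The submitters' processing notes name hg19, DESeq2 and edgeR; the annotation release counted and the strand setting are not given in the sources used here, so positions are from GENCODE 29 on GRCh38.

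Members, lists and seed words were chosen with earlier results of these data known. edgeR 4.0.16 (R 4.3.3; TMM factors, quasi-likelihood test, Benjamini-Hochberg adjustment at 0.05) was fitted with cell line and siRNA as terms on the 13501 genes whose FPKM reached 1 in 2 or more libraries. Libraries were paired by cell line, as the labels name it. Each SE was derived from the F statistic of the edgeR test and does not carry the counting error of a line with few counts. Log2 ratios within a line used a prior count of 2, and intervals of ratios are exact binomial at 95%, covering counting error only. The floor was 3 counts. Near-identical copies were matches of at least 95% identity over at least 50% of a transcript (blastn 2.17.0). DESeq2 1.42.0 and limma 3.58.1 were alternatives. The steps were tested on simulated data.

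Genes were named by rule: the 10 of highest mean FPKM, those called for the siRNA, the 5 highest and 5 lowest ratios in each line, the 6 highest and 6 lowest shared shifts, the 8 largest line differences each way, the 8 highest genes of each line alone, and short hand-made lists. Neighbours, LINC00106, LINC00888, LINC01505 and LINC02606 were named after their values were seen.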

Additional observations from a re-analysis of the deposited data

Results flagged for a closer look

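LINC00461 and LINC00511 moved in opposite directions with siLINC01291 in the 2 lines. Each ratio's exact binomial 95% interval, which covers counting error only, excluded 1. Of the 10988 genes expressed in both lines, 3391 were higher in both and 3715 lower in both, so a differing sign was common. LINC00461, which hosts miR-9-2, had a log2 ratio of siLINC01291 to siNC of -0.39 in SK-MEL-28 (174 and 224 counts) and of 0.38 in A375 (181 and 130 counts). Its exons overlap MEF2C-AS2 on the opposite strand. LINC00511, described in breast and other cancers, had a log2 ratio of -0.16 in SK-MEL-28 (967 and 1060 counts) and of 0.34 in A375 (820 and 608 counts). With 1 library a group, the difference between the lines was not tested for either gene.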

How the results depend on the processing

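Of 588 values of named genes under the alternatives, 564 were counted as keeping their direction and their side of the threshold. Among these are DESeq2 values without an adjusted p, such as those of LINC00294 and LINC01521 for the siRNA. They were counted as not called and show the direction only. The count of lincRNAs risen with siLINC01291, 1 as reported, was 0 without the replicate block, 0 with limma, 2 with a filter on a mean FPKM of 0.5 and 6 with no filter; the count fallen, 0 as reported, was 1 with no filter and 1 with DESeq2. With no filter, 91 lincRNAs were higher and 105 lower in SK-MEL-28, because all 262 were tested. With a limit of 0.5 FPKM, the counts at least 2-fold apart were 9 higher and 5 lower in SK-MEL-28 and 8 higher and 1 lower in A375; with a limit of 5 FPKM, 1 was higher in SK-MEL-28 and 0 in A375. Genes seen in SK-MEL-28 only numbered 21 with a floor of 10 counts and 16 with a limit of 0.5 FPKM, and those in A375 only 42 with 0.5 FPKM. Log2 ratios of the siRNA, none of them called, that changed sign were in DESeq2 LINC00460 (-0.0163), LINC00958 (-0.92), LINC02750 (-0.23) and LINC02844 (-0.18), in limma LINC02587 (0.0026), and LINC01029 without the block (-0.13) and with no filter (-0.0019); the cause was not tested. Leaving out a replicate was not possible with 1 library a group. Without the lincRNAs that overlap another gene's exon or have a copy, an alternative added after the values were seen, 31 were higher and 39 lower in SK-MEL-28 of 81 tested, and the median log2 ratios of the siRNA were 0.28 in SK-MEL-28 and 0.15 in A375. Depth limits genes such as LINC02585, which rests on 10 to 19 counts a library.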
